A study of Homo sapiens with 6 samples.

Results

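The genes described are 10 of the 17513 in the deposited tables: the ligands TNF, TNFSF10, TNFSF13, TNFSF13B and TNFSF14, the receptors TNFRSF1A, TNFRSF1B and CD40, and the signaling proteins TRAF1 and BIRC3. They were chosen by gene symbol as a pathway family, with earlier results of these data known. Messenger RNA was sequenced in 6 libraries. According to the series design, the RNA came from macrophages made from THP1, a human monocytic leukemia line, that spent 48 h in culture medium taken from KYSE150 cells, an esophageal squamous carcinoma line of human origin. In the shNC medium group (3 libraries) the KYSE150 cells carried the shNC hairpin, the reference arm, and in the shSPP1#2 medium group (3 libraries) they carried a hairpin named for SPP1, the gene of the secreted protein osteopontin. By its title, the series asks how tumor SPP1 bears on M2-type macrophages. A single hairpin, 1 macrophage line and 1 carcinoma line stand behind the comparison, and osteopontin in the medium was not measured in these files. Nothing in the labels says that replicates were separate cultures, so p-values measure the spread between these libraries, which may be technical.

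TNF superfamily ligands are made as trimeric membrane proteins, several of which are cut from the cell surface and act as soluble cytokines. Their receptors fall into those with a death domain, which can recruit caspases, and those that recruit TRAF adaptor proteins, which together with the ubiquitin ligases of the cIAP type switch on NF-kB. In macrophages TNF is a main product of inflammatory activation, and TRAF1 and BIRC3 (cIAP2) are themselves NF-kB target genes that feed back on the pathway.

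Stretches of sequence upstream of some members are shown as examples. BIRC3 had the smallest p among the members, TNF gives the family its name, and TNFSF10 was set apart in a single library. None of these genes differed between the media at an adjusted p below 0.05 in the edgeR quasi-likelihood test. RefSeq promoter sequences (GRCh38.p14) were found for 9 of the 10 members, at 14 start sites, and the 250 bases before each start were searched on both strands for the NF-kB consensus, for a pair of GAAA half-sites 2 bases apart (an interferon response type element) and for TATAAA. Each is printed 5′ to 3′ on the strand of its gene and ends before the first base that GENCODE v29 places in an exon, with matches in capitals. The windows are chr11:102317234-102317449 (plus strand), chr6:31575315-31575564 (plus strand) and chr3:172523508-172523680 (minus strand).
BIRC3: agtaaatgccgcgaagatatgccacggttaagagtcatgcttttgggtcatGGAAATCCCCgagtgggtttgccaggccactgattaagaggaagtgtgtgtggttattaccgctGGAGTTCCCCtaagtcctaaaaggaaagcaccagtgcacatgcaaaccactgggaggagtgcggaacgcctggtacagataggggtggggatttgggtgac
TNF: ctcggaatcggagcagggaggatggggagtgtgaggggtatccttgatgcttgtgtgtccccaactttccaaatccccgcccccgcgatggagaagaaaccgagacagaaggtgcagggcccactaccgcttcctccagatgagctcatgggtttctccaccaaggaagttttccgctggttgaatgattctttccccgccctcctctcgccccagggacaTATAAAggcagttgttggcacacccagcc
TNFSF10: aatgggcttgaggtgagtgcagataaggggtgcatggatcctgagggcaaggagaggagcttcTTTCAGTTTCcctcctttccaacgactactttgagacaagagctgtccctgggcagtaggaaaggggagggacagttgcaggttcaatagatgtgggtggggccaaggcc
The BIRC3 stretch held a pair of NF-kB matches, both on the opposite strand, at 199 to 190 and 135 to 126 bases before the start site. TNFSF13 and TNFSF14 also had NF-kB matches, so that 4 of the 14 member windows, some of which overlap, held one, as did 9.96% of the 35116 RefSeq promoter windows of this length. In TNFSF14 the matches overlapped each other, and in TNFSF13 a single site read as a match on both strands. The paired GAAA half-sites were found before TNFSF10 (187 to 178 bases, opposite strand), TNFRSF1B and TNFSF13B, in 3 of the 14 windows, against 3.02% of all windows. TATAAA stood 29 to 24 bases before the TNF start and 31 to 26 bases before that of TNFSF10, outside the printed part, in 2 of the 14 windows against 10.7% of all. Matches of the different motifs did not overlap, and a match describes letters and says nothing about binding. The lack of a match, as for NF-kB before TNF, says as little, since near matches to the pattern were not counted.

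Each library held 18113591 to 20626346 estimated counts in all, the smallest being shNC replicate 2. The sample labels name the KYSE150 line, but all 12 listed macrophage markers reached 1 FPKM in every library, with a list median of 186 to 195 FPKM, and 0 of 12 squamous epithelial markers did, with a list median of 0 to 0.025 FPKM. FPKM are fragment counts scaled by transcript length and by library total. The macrophage list summed to 2600 to 2800 FPKM in shNC medium and 2530 to 2610 FPKM in shSPP1#2 medium. None of its genes passed in edgeR, but 3 of 12 had groups that did not overlap in CPM, all lower in shSPP1#2 medium. Of all tested genes 5.5% were apart in that direction and 11.1% in either. The 3, named after their values were seen, were the Fc receptor chain FCER1G at a log2 estimate of -0.18 (-0.31 to -0.055), AIF1 at -0.21 (-0.37 to -0.054) and the scavenger receptor CD163 at -0.23 (-0.47 to 0.009). CD163 lay far below the list median, at 1.33 to 1.69 FPKM. MSR1 (0.13), ITGAM (0.011) and ITGAX (0.011) had estimates above 0, and the other macrophage markers lay below it. The squamous list summed to 1.15 to 1.81 FPKM in shNC medium and 1.38 to 1.78 FPKM in shSPP1#2 medium. Of 8 T and NK cell markers 3 were present in the tables (CD3G, NCAM1 and KLRD1), summing to 7.16 to 8 FPKM and 7.36 to 7.77 FPKM, of which NCAM1 made up 5.86 to 6.62 FPKM per library. Of the 6 B cell markers, MS4A1 lay at 0 in 5 of the 6 libraries and CD22 at 1.05 to 1.43 FPKM in all of them, and the list summed to 2.37 to 2.89 FPKM in shNC medium and 2.23 to 2.35 FPKM in shSPP1#2 medium. These are bulk samples, in which fewer cells of a type and less RNA per cell cannot be told apart.

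The members differed widely in abundance, from 113 FPKM for TNFRSF1B to 0.72 FPKM for TNFSF13B as means over the 6 libraries. TNFRSF1B ranked 620 among the 17513 genes and TNFSF14 ranked 1445, whereas TNFSF13B ranked 11478. The order by mean FPKM was TNFRSF1B, TNFSF14, TNFRSF1A, CD40, TNF, TNFSF10, TRAF1, BIRC3, TNFSF13 and TNFSF13B. The ranges over libraries overlapped for 3 neighboring pairs: CD40 with TNF, TNFSF10 with TRAF1, and BIRC3 with TNFSF13. Within a library CD40 exceeded TNF in 6 of 6 and BIRC3 exceeded TNFSF13 in 6 of 6, but TNFSF10 exceeded TRAF1 in 5 of 6. The 2 kinds of TNF receptor were thus far from equal at the RNA level: the ratio of TNFRSF1B to TNFRSF1A in FPKM was 5.02 ± 0.109 in shNC medium (SD, n = 3) and 5.31 ± 0.147 in shSPP1#2 medium (SD, n = 3). Per library it was 5.06, 4.9 and 5.11 with shNC medium (replicates 1 to 3) and 5.48, 5.22 and 5.23 with shSPP1#2 medium, so the groups lay apart by a narrow margin. With 3 against 3 libraries an exact permutation test cannot go below p = 0.1, and the ratio was chosen after the levels had been seen.

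**Figure D1:**
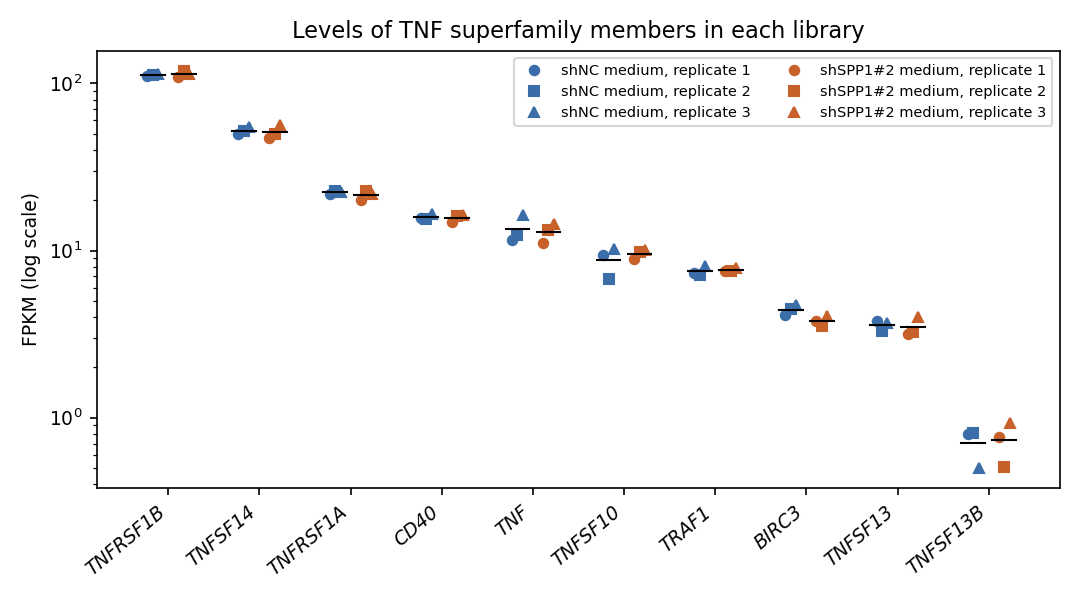
FPKM (log axis) of the 10 members in order of mean level, 1 symbol per library, shNC medium in blue and shSPP1#2 medium in orange, with black bars at the group means. TNFRSF1B lies near 113 FPKM and TNFSF13B near 0.72 FPKM, and within a gene the colors overlap except for BIRC3.

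Between the media 0 of the 10 members differed at an adjusted p below 0.05 in the edgeR quasi-likelihood test, where 0% of the 13555 tested genes did (0 genes; 928 at an unadjusted p below 0.05). All 10 members passed the filter on low counts. Estimated log2 fold changes (shSPP1#2 minus shNC medium) ran from -0.19 for BIRC3 to 0.11 for TNFSF10, with a median of -0.014 beside -0.0003 over all tested genes; 4 members were above 0 and 6 below. The 95% intervals lay within 0.5 of 0 for 9 members and within 1 for all 10, TNFSF13B being the one with the wider interval. At an unadjusted p below 0.05 stood 1 member, BIRC3, beside 6.85% of all genes. The sign held with any 1 library left out for TNFRSF1A, TRAF1 and BIRC3, and turned in at least 1 such fit for each of the other 7. These fits share most of their libraries, so a held sign does not establish a direction. No direction is given for those 7, nor for TNFRSF1A and TRAF1, whose intervals cross 0. None is given for BIRC3 either, which did not pass (edgeR adjusted p = 0.633). DESeq2 called 25 genes (1.32% of those it adjusted over) and 0 of the members. It gave 8 of the 10 members, BIRC3 among them, no adjusted p, so those could not be called.

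**Figure D2:**
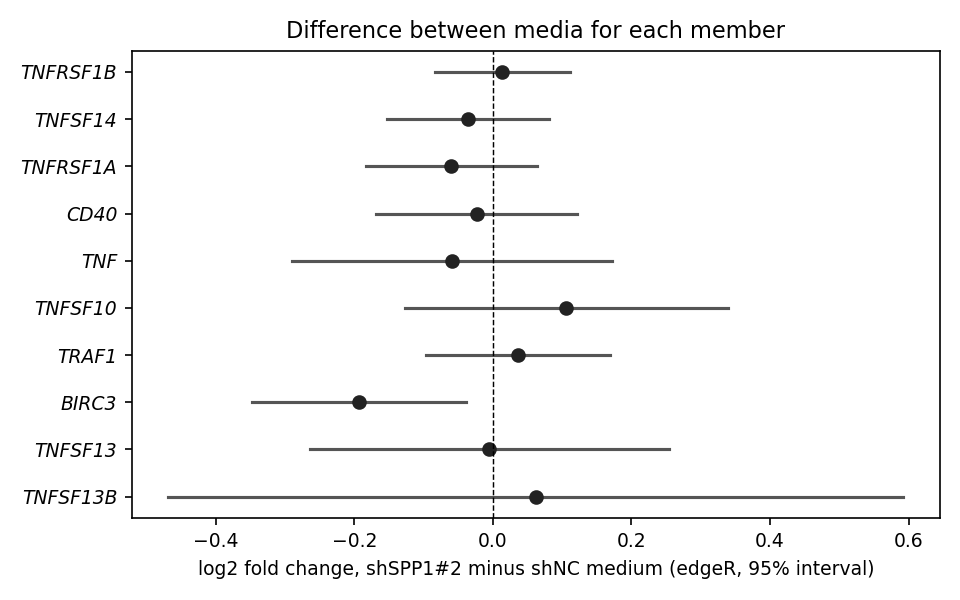
Log2 fold change of each member, shSPP1#2 minus shNC medium, as points with 95% intervals from the edgeR fit (horizontal axis, log2 scale), genes in order of mean FPKM. The interval crosses 0 for every member but BIRC3, whose interval runs from -0.35 to -0.039, and it is widest for TNFSF13B.

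Among the ligands, TNF, the inflammatory cytokine that signals through both TNFRSF1A and TNFRSF1B, measured 11.6, 12.4 and 16.2 FPKM with shNC medium and 11.2, 13.2 and 14.4 FPKM with shSPP1#2 medium, in the order of replicates 1 to 3 used for every member. The groups overlapped throughout, with the highest library in one group and the lowest in the other. The means were 13.4 ± 2.47 FPKM in shNC medium and 13 ± 1.65 FPKM in shSPP1#2 medium (SD, n = 3 each), and the log2 fold change was -0.059 (95% interval -0.29 to 0.17, edgeR adjusted p = 0.961). Over the 6 libraries its coefficient of variation was 14.4%, where counting alone at its depth would give 4.82%. TNF spread more between libraries of one medium than between the media, and it rose from replicate 1 to replicate 3 in both. Without shNC replicate 3 the log2 fold change was 0.10, and without shNC replicate 1 it was -0.16.

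TNFSF14 (LIGHT), a ligand of the lymphotoxin beta receptor and of the receptor HVEM, was the most abundant of the 5 ligands. It measured 49.8, 51.5 and 55.2 FPKM with shNC medium and 47.4, 49.7 and 56 FPKM with shSPP1#2 medium. Both the lowest and the highest library belonged to shSPP1#2 medium, around the whole shNC range, and the values rose from replicate 1 to replicate 3 in both media. The log2 fold change was -0.036 (-0.15 to 0.081, edgeR adjusted p = 0.948). In each library it lay above TNF by a ratio of 3.4 to 4.3 in FPKM.

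TNFSF10 (TRAIL), a ligand of death receptors whose gene is inducible by interferon, measured 9.37, 6.77 and 10.2 FPKM with shNC medium and 8.87, 9.75 and 10 FPKM with shSPP1#2 medium. The library that stood apart was shNC replicate 2, with 221 estimated counts where the other 5 had 332 to 384. That library also had the smallest total, and it lay at one end of the first principal component of all genes (10.1, against -7.58 to 6.62 for the others; 34% of the variance). The part of the library in this value was not tested. With all libraries the log2 fold change was 0.11 (-0.13 to 0.34, edgeR adjusted p = 0.905), and without shNC replicate 2 it was -0.044.

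TNFSF13 (APRIL) and TNFSF13B (BAFF) are related ligands known for the survival of B cells and plasma cells. They had the lowest mean FPKM of the 10 members, ranking 8664 and 11478 among the 17513 genes. TNFSF13 measured 3.78, 3.32 and 3.7 FPKM with shNC medium and 3.19, 3.26 and 4.03 FPKM with shSPP1#2 medium, on 98 to 132 estimated counts. The groups overlapped, at a log2 estimate of -0.0046 (-0.26 to 0.25, edgeR adjusted p = 0.999), and the spread of 9.54% between libraries was close to the 9.36% of counting error. The exons of TNFSF13 share 1263 of 2276 bases (55.5%) with the read-through gene TNFSF12-TNFSF13 in GENCODE v29, which is not analysed here, so reads of this gene are uncertain; those of the upstream neighbor TNFSF12 came to 0 or 1 per library. TNFSF13B measured 0.8, 0.81 and 0.5 FPKM with shNC medium and 0.77, 0.51 and 0.93 FPKM with shSPP1#2 medium. These values rest on 26 to 48 estimated counts, and each group held libraries near both ends of the range. The log2 fold change was 0.062 (-0.47 to 0.59, edgeR adjusted p = 0.983), so a change of up to 1.51-fold higher or to 0.723 of the shNC level lay within the interval.

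Among the receptors, TNFRSF1A (TNFR1), the death domain receptor found on most cells, measured 21.9, 22.9 and 22.4 FPKM with shNC medium and 20 FPKM, 22.9 FPKM and 21.7 FPKM with shSPP1#2 medium. The groups met at the top, where shNC replicate 2 and shSPP1#2 replicate 2 had the same 22.85 FPKM. The log2 fold change was -0.060 (-0.18 to 0.064, edgeR adjusted p = 0.899). Without shSPP1#2 replicate 1 it shrank to -0.010, and without shSPP1#2 replicate 2 it was -0.12.

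TNFRSF1B (TNFR2), which recruits TRAF2 and has no death domain, was the most abundant member and had the smallest coefficient of variation. It measured 111, 112 and 114 FPKM with shNC medium and 110, 119 and 113 FPKM with shSPP1#2 medium, or 2.98% over the 6 libraries. The shSPP1#2 libraries enclosed the shNC range. The log2 fold change was 0.014 (-0.083 to 0.11, edgeR adjusted p = 0.978). CD40, the receptor through which helper T cells activate macrophages and dendritic cells, measured 15.7, 15.5 and 16.5 FPKM with shNC medium and 14.8, 16.1 and 16.2 FPKM with shSPP1#2 medium. Its libraries also overlapped, at a log2 fold change of -0.023 (-0.17 to 0.12, edgeR adjusted p = 0.976), and its spread of 3.94% did not exceed the 4.49% of counting error.

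Of the signaling proteins, TRAF1, an adaptor that binds TRAF2 and the cIAP ligases, measured 7.33, 7.18 and 8.04 FPKM with shNC medium and 7.59, 7.59 and 7.88 FPKM with shSPP1#2 medium. All 3 shSPP1#2 values fell inside the shNC range. The log2 fold change was 0.036 (-0.097 to 0.17, edgeR adjusted p = 0.956), and it shrank to 0.0053 without shNC replicate 1.

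BIRC3, the cIAP2 ubiquitin ligase that attaches ubiquitin chains to RIPK1 and restrains the NF-kB kinase NIK, was the one member whose groups did not overlap. It measured 4.13, 4.49 and 4.7 FPKM with shNC medium and 3.81, 3.53 and 4.05 FPKM with shSPP1#2 medium, means of 4.44 ± 0.288 and 3.8 ± 0.26 FPKM (SD, n = 3 each). The lowest shNC library and the highest shSPP1#2 library were only 4.13 and 4.05 FPKM. In CPM, the scale of the shares that follow, the nearest libraries were shNC replicate 1 at 26.2 and shSPP1#2 replicate 1 at 26. Of all tested genes 5.5% were likewise apart and lower in shSPP1#2 medium (11.1% in either direction), so 1 of 10 members in this state is near the background. The macrophage markers FCER1G, AIF1 and CD163, picked for their lack of overlap, had estimates of a like size in the same direction. Others on that list lay near 0, as ITGAM did at 0.011 and CD14 at -0.001, or above it, as MSR1 did at 0.13. The part of these markers in the BIRC3 value was not tested. The log2 fold change of BIRC3 was -0.19 (standard error 0.074, 95% interval -0.35 to -0.039), or 0.875 of the shNC level. It did not pass (edgeR adjusted p = 0.633, unadjusted p = 0.0171). Leaving out single libraries gave -0.26 (without shNC replicate 1) to -0.13 (without shNC replicate 3), and the unadjusted p was above 0.05 without shNC replicate 3 or shSPP1#2 replicate 2. The closest paralog, BIRC2, lies 7.81 kb away on the same strand and measured 20.2 to 22.7 FPKM, above BIRC3 in each library.

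Single libraries were high or low for several members at once. The same counts were not made over all genes, so whether this is particular to the members was not tested. In log2 CPM (counts scaled to a common library total) relative to each gene's mean, shNC replicate 3 was the highest library for 5 members (TNF, TNFSF10, CD40, TRAF1 and BIRC3) and above the mean for 9, all but TNFSF13B. The library shSPP1#2 replicate 1 was the lowest for 5 members (TNF, TNFSF14, TNFRSF1A, TNFRSF1B and CD40) and above the mean for 1. Median deviations over the members were 0.075 in shNC replicate 3, 0.075 in shSPP1#2 replicate 3, and -0.053 in shSPP1#2 replicate 1. The range between the highest and lowest library was 0.54 for TNF, 0.59 for TNFSF10 and 0.83 for TNFSF13B on the log2 scale, against 0.14 for TNFRSF1B and 0.15 for CD40. The median log2 fold change of the members was 0.014 without shNC replicate 3, with 3 below 0, and 0.026 without shSPP1#2 replicate 1, with 2 below 0, whereas without shSPP1#2 replicate 3 it was -0.074, with 7 below 0.

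**Figure D3:**
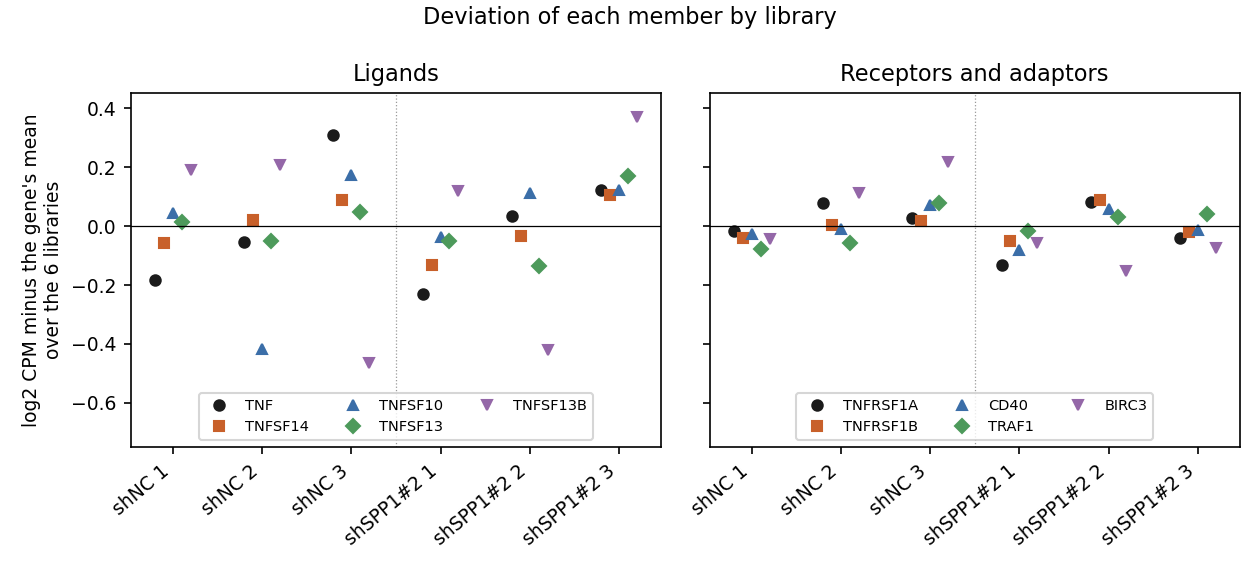
Log2 CPM of each member minus its mean over the 6 libraries (vertical axis), by library, ligands on the left and receptors and signaling proteins on the right, with a dotted line between the media. TNF is highest in shNC replicate 3 (0.31) and lowest in shSPP1#2 replicate 1 (-0.23), TNFSF10 is low in shNC replicate 2 (-0.42), and BIRC3 lies below 0 in all 3 shSPP1#2 libraries and in shNC replicate 1.

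The rest of the pathway, in 6 lists of 98 genes of which 82 were tested, also gave 0 calls in either direction in edgeR, with a median log2 fold change of -0.005. At an unadjusted p below 0.05 stood 3 of the 82 (3.66%, against 6.85% of all genes). Of 13 other ligands 7 were tested, 3 above 0 and 4 below. The most abundant was TNFSF15 (TL1A), a ligand of death receptor 3, at 109 to 121 FPKM, a level like that of TNFRSF1B, followed by the T cell costimulators CD70 at 15.7 to 17.7 FPKM and TNFSF9 at 14.7 to 15.8 FPKM. Lymphotoxin alpha, LTA, gave a log2 estimate of 0.70 (-0.14 to 1.54, edgeR adjusted p = 0.788) at 0.11 to 0.44 FPKM, and TNFSF4 (OX40 ligand) gave 0.20 (-0.085 to 0.48), while its FPKM means were 0.58 in shNC and 0.55 in shSPP1#2 medium.

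Of 26 other receptors 25 were in the tables and 17 were tested, 8 above 0 and 9 below. The TRAIL receptors were well represented: TNFRSF10D, a decoy receptor with a truncated death domain, measured 72.7 to 78.5 FPKM and TNFRSF10B, a death receptor, 36 to 40.7 FPKM. The TWEAK receptor TNFRSF12A measured 65.5 to 81.7 FPKM, at a log2 estimate of -0.13 (-0.26 to -0.002, edgeR adjusted p = 0.72), and the receptor RELT at one of -0.096. In CPM the groups did not overlap for 2 of the 17, in opposite directions and against 11.1% of all genes: TNFRSF10B at 0.075 (-0.019 to 0.17) and CD27, a costimulatory receptor named after its values were seen, at -0.39 (-0.94 to 0.15).

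All 25 adaptors and ubiquitin ligases were tested, 13 above 0 and 12 below, with a median of 0. TANK, a TRAF-binding regulator, averaged 62.3 FPKM, TAB2, which links ubiquitin chains to the kinase TAK1, 56.3 FPKM, and RBCK1 (HOIL-1), a subunit of the linear ubiquitin ligase, 55.4 FPKM. The estimate for RBCK1 was 0.12 (0.010 to 0.22, edgeR adjusted p = 0.691), and that for TAB1, a TAK1 partner, was -0.14 (-0.29 to 0.003, edgeR adjusted p = 0.732). Groups did not overlap in CPM for 2 of the 25, in opposite directions, TAB1 being the lower one, against 11.1% of all genes. In the cell death arm 2 of 9 genes were above 0 and 7 below, with a median of -0.036. The caspase-8 inhibitor CFLAR (c-FLIP) was its most abundant gene at 53.6 to 64.6 FPKM, followed by the adaptor FADD and by DIABLO, an antagonist of the IAP proteins, with log2 fold changes of -0.036, -0.008 and -0.10. DIABLO was the 1 of these 9 genes whose groups did not overlap in CPM, against the same 11.1%.

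Genes that process ligands and receptors or control their transcripts had 7 of 9 members above 0, with a median of 0.041. FURIN, the protease that cleaves APRIL and BAFF precursors, averaged 180 FPKM, and the mRNA decay factors ZFP36L2 and ZFP36L1 averaged 85.8 and 79 FPKM. RHBDF2, which carries the TNF sheddase ADAM17 to the surface, gave an estimate of 0.077 (-0.017 to 0.17), and the sheddase ADAM10 gave 0.067 (-0.026 to 0.16). Of 16 TNF-inducible NF-kB targets 15 were tested, 4 above 0 and 11 below, with a median of -0.021. IER3, an early response gene, averaged 663 FPKM, the superoxide dismutase SOD2 387 FPKM and the survival gene BCL2A1 245 FPKM. GADD45B, a stress and NF-kB response gene, measured -0.28 (-0.50 to -0.061, edgeR adjusted p = 0.629) and the NF-kB inhibitor NFKBIA -0.13 (-0.27 to 0.002, edgeR adjusted p = 0.732); neither passed.

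**Figure D4:**
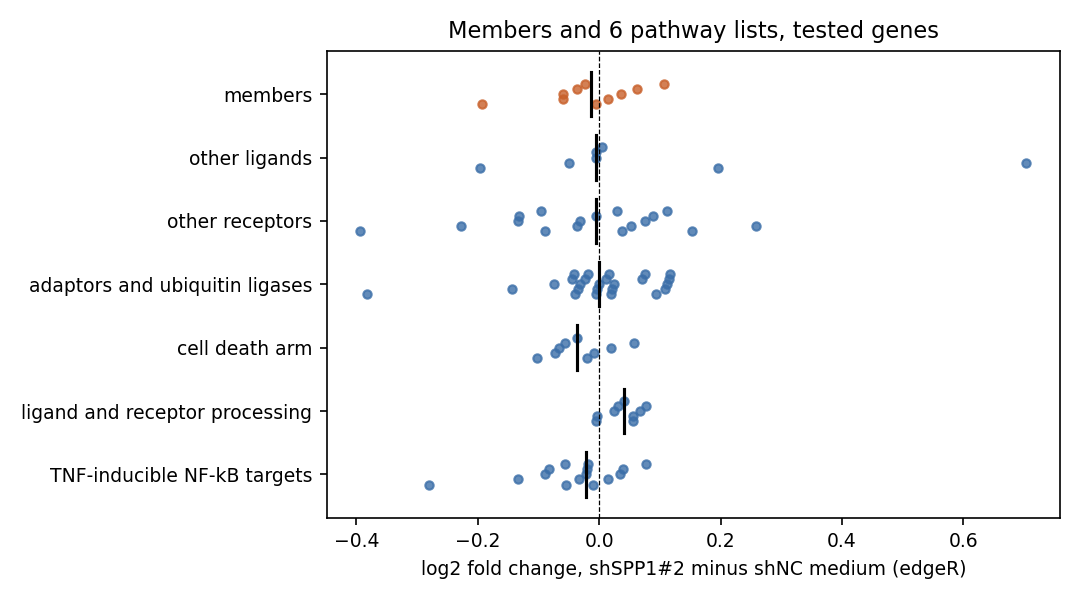
Log2 fold change (shSPP1#2 minus shNC medium, edgeR) of each tested gene as a point, for the 10 members and the 6 pathway lists, with a black bar at each list's median. The medians lie between -0.036 and 0.041, and the point farthest from 0 is the scarce ligand LTA at 0.70.

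Several members sit beside relatives in the genome. Coordinates are from GENCODE v29 on GRCh38. TNF (Entrez 7124) lies on chromosome 6, 31575567 to 31578336, between LTA, 1.24 kb away, and LTB, 2.19 kb away; LTA measured 0.11 to 0.44 FPKM and LTB 0.87 to 1.41 FPKM, far under the 11.2 to 16.2 FPKM of TNF. TNFSF14 (chromosome 19, 6661253 to 6670588) has CD70 at 57.1 kb and TNFSF9 at 125 kb, both expressed here. TNFRSF1A (chromosome 12, 6328757 to 6342114) lies 32.9 kb from LTBR, the lymphotoxin beta receptor, which measured 20.5 to 21.2 FPKM, close to the level of TNFRSF1A itself, and 103 kb from CD27, at 0.66 to 1.43 FPKM. TNFRSF1B (chromosome 1, 12167003 to 12209228) lies 22.8 kb from TNFRSF8 (CD30), at 0.05 to 0.11 FPKM. BIRC3 occupies 102317450 to 102339403 of chromosome 11, TNFSF10 172505508 to 172523507 of chromosome 3, TNFSF13B 108251240 to 108308484 of chromosome 13, TNFSF13 7558292 to 7561608 of chromosome 17, CD40 46118272 to 46129863 of chromosome 20 and TRAF1 120902393 to 120929173 of chromosome 9.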

How the data were processed

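The authors deposited estimated counts per gene, unscaled, and FPKM values per gene (1 column per library, 17513 genes). Per the submitters' processing notes the tools were HISAT2 2.0.4, Bowtie2 2.2.5 and RSEM and the build GRCh38.p13; which tool did what, the annotation, any filter and the use of strand are not given in the sources used. Stray text on 20 lines among the FPKM values was dropped. Estimated counts (78.9% to 80.4% of values not whole, tolerance 0.005) were rounded and filtered (filterByExpr), then scaled (TMM). The edgeR 4.0.16 quasi-likelihood test in R 4.3.3 ran over all 13555 genes kept, with Benjamini-Hochberg adjustment and calls at an adjusted p below 0.05. Levels are the deposited FPKM. Total estimated counts were 18113591 to 20626346 per library, and the common dispersion was a coefficient of variation of 4.54% beyond counting error. The fit was tested on simulated data. Replicates differed by more than counting noise (chi-square per degree of freedom 3.2 to 4.34), so none was merged.

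The members and gene lists were chosen with earlier results of these data known. Named were all members and, per pathway list, the 3 tested genes of largest mean FPKM and the 2 of smallest p, of which 1 gene is not reported here; neighbors in the genome were chosen by position, within 250 kb. Alternatives were RLE scaling, scaling by total, keeping low-count genes, DESeq2 1.42.0, limma 3.58.1 on log2(FPKM + 1) and log2(FPKM + 0.1) for genes with a mean of at least 0.5 FPKM, a replicate block, and each library left out. DESeq2 without its independent filter was added after seeing the data. Plots were drawn with matplotlib 3.10.9.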

Additional observations from a re-analysis of the deposited data

How the results depend on the processing

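No member was called under any alternative run, and 0 of the listed pathway genes were; with its filter, DESeq2 gave 8 of the 10 members no adjusted p, and without it none of the 10 passed. Over the whole table the count of called genes moved from 0 to 18 without a low-count filter, 25 with DESeq2 (adjusted over 1891 genes), 12 with DESeq2 without its independent filter, 1 with limma on log2(FPKM + 0.1), and 1 to 10 with single libraries left out. Of 140 recomputed log2 fold changes of members, 15 changed sign and 125 did not; the cause was not tested. TNFSF13 became 0.00092 with total-count scaling. With single libraries left out the values ran from -0.16 to 0.10 for TNF, -0.044 to 0.23 for TNFSF10, -0.097 to 0.059 for TNFSF13, -0.14 to 0.26 for TNFSF13B, -0.099 to 0.019 for TNFSF14, -0.029 to 0.042 for TNFRSF1B and -0.059 to 0.011 for CD40. BIRC3 ran from -0.22 to -0.18 over the other alternatives (adjusted p 0.265 to 1, with none given by DESeq2 with its filter).

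Both groups carry the replicate numbers 1 to 3. Deviations of same-numbered libraries from their group means correlated at 0.0733, 0.096 and 0.0481 across 13555 genes. Each library correlated best with its own number, a hint from the data and not from the design. The labels do not say whether the numbers pair the libraries, and the main fit left them unpaired. Its count of 0 called genes over the whole table depends on that choice. With a replicate block 59 genes were called (0.435% of those tested), 0 of them members. The standard error of the log2 fold change fell from 0.11 to 0.069 for TNF and from 0.056 to 0.034 for TNFSF14. For TNFSF13B it went from 0.25 to 0.26.

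Depth limits TNFSF13B most, at 26 to 48 estimated counts, where counting error alone is 16.6%.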
